A study of Mus musculus with 18 samples.

Results

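Fndc3c1, Smyd1, Cd37, Dcdc2a, Nckap1l, Cachd1, Car4, Aspg and Prom2 are 9 of the 25909 genes counted in 18 polyA RNA libraries of mouse germ cell-like differentiation. They were chosen by name because an earlier analysis of the same libraries listed them among the genes that differed most between day 3 and late primordial germ cell-like cells (PGCLC). The day 5 against day 3 difference of these genes is therefore a description here, and tests are given only for comparisons that it does not use. The libraries form 6 groups of 3: Esrrb KO and WT epiblast-like cells (EpiLC), Esrrb KO and WT PGCLC after 3 days, and Esrrb KO and WT PGCLC after 5 days. All came from SGET embryonic stem cells of the B6CBA/129 strain, which carry reporters of germ cell and pluripotency genes and were kept in 2i/L on gelatin. EpiLC were made on fibronectin with activin A and bFGF and were not sorted. PGCLC were induced from EpiLC with BMP4, LIF, SCF, BMP8a and EGF, and the SG+ETlow cells were sorted. Some labels call the late libraries day 6 and others 5 days, and they are called day 5 here. The KO libraries come from lines named A5, B1 and A2 (A2 is KO2 in the titles), so each KO library is of 1 line. The WT libraries are numbered 1 to 3 with no word on whether they were separate cultures, so the spread between them may be technical. The spread of a gene was estimated over all 18 libraries together. SE and p-values of comparisons within WT thus also carry the spread between KO lines. Values per library are given below in the order A5, B1, A2 for KO and 1, 2, 3 for WT.

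PGCLC are a culture model of the founder cells of the germ line, which arise from epiblast cells exposed to BMP signals, regain part of the naive pluripotency programme and set up a germ cell programme of their own. Esrrb is an orphan nuclear receptor of the naive pluripotency network that binds DNA at extended oestrogen-related receptor elements. The 9 genes come from unrelated families. Smyd1 encodes a histone methyltransferase known from heart and skeletal muscle. Cd37 encodes a tetraspanin, a 4-pass membrane protein best known from B lymphocytes. Nckap1l encodes Hem1, the blood cell version of a subunit of the WAVE complex that drives branching of actin filaments. Dcdc2a encodes a microtubule-binding protein with doublecortin domains. Prom2 encodes a prominin, a protein of membrane protrusions in epithelia. Cachd1 encodes a membrane protein related to the alpha-2-delta subunits of calcium channels. Car4 encodes a membrane-anchored carbonic anhydrase. Aspg encodes an asparaginase, and Fndc3c1 encodes an X-linked protein with fibronectin type III domains.

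The libraries held 3030797 to 5282191 counts each. Counts of WT pairs within a group differed by a chi-square of 1.11 to 1.8 per degree of freedom, against 3.88 to 33.6 for pairs of KO lines, so KO lines differed more among themselves than WT libraries did. Esrrb measured 6.82, 4.57 and 38.6 CPM in KO EpiLC, against 32.2, 26.9 and 19.8 CPM in WT EpiLC. The EpiLC library labelled KO A2 was thus above every WT EpiLC library in Esrrb. Genes of chromosome 11 had a median log2 ratio to the WT mean of -0.48 in that library. The A2 day 3 and day 5 libraries had -0.42 and -0.46 there. At day 3 Esrrb measured 161, 165 and 90.4 CPM in KO cells and 625, 591 and 613 CPM in WT cells. At day 5 it measured 148, 204 and 129 CPM in KO cells and 597, 606 and 574 CPM in WT cells. Esrrb was thus lower in every KO PGCLC library (log2 fold change -2.01 ± 0.30 over both times, adjusted p = 0.000153, edgeR), and the labels do not say which part of the gene was altered. The summed level of 10 early germ cell markers was 1990 to 2170 CPM at day 3 and 1780 to 2410 CPM at day 5 in KO cells, against 265 to 409 CPM in KO EpiLC. In WT it was 2900 to 2970 CPM at day 3 and 2480 to 2560 CPM at day 5, against 258 to 327 CPM in WT EpiLC. The list holds Dppa3, the gene of the sorting reporter. Of 6 formative epiblast markers the sum was 896 to 2930 CPM in KO EpiLC, lowest in the library labelled A2, and 3530 to 3600 CPM in WT EpiLC. The sum of 10 fibroblast and mesenchyme markers was 242 to 1840 CPM in KO EpiLC, highest in the same library, and 234 to 246 CPM in WT EpiLC. It was also higher in KO PGCLC without overlap, at 70.7 to 103 CPM against 46.2 to 47.9 CPM in WT at day 3, and 122 to 260 CPM against 64.6 to 73.5 CPM in WT at day 5. The sum of 7 late germ cell markers was 155 to 241 CPM in KO and 257 to 270 CPM in WT at day 5, and 106 to 206 CPM in KO and 164 to 171 CPM in WT at day 3. The part of these cell types in the KO differences given below was not tested. In bulk RNA, fewer cells of a type and less RNA per cell cannot be told apart.

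The promoters shown are those of Smyd1, Car4 and Cachd1, 3 of the 4 genes whose KO differences changed between EpiLC and PGCLC, and of Dcdc2a, which was near 0 in EpiLC. That of Fndc3c1, the other such gene, is not shown because 101 of its 250 bases lie in an exon of GENCODE. Each is the 250 bases before the RefSeq start (GRCm38.p6), read 5′ to 3′ on the gene's strand, with motif matches in capitals. RefSeq promoters were found for 8 of the 9 genes, all but Nckap1l. The Smyd1 sequence lies at chr6:71262282-71262531 (- strand), the Dcdc2a sequence at chr13:25055754-25056003 (+ strand), the Car4 sequence at chr11:84957504-84957753 (+ strand) and the Cachd1 sequence at chr4:100776429-100776678 (+ strand). The Smyd1 window lies inside the GENCODE span of the gene (chr6:71213940-71322233), so it is not the window before the 5′ end of that span.
Smyd1: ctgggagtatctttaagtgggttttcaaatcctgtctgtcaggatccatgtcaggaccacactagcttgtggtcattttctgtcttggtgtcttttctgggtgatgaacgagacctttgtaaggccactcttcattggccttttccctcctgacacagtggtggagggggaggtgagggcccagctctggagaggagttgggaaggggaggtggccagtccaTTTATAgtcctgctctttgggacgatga
Dcdc2a: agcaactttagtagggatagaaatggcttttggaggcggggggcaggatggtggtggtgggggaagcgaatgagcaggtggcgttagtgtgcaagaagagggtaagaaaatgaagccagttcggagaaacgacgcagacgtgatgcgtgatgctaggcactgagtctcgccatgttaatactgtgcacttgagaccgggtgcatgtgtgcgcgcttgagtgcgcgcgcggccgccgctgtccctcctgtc
Car4: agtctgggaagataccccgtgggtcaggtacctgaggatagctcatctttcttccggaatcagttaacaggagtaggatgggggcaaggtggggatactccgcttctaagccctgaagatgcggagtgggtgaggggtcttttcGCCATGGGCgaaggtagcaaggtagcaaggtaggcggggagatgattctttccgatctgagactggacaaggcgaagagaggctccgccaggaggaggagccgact
Cachd1: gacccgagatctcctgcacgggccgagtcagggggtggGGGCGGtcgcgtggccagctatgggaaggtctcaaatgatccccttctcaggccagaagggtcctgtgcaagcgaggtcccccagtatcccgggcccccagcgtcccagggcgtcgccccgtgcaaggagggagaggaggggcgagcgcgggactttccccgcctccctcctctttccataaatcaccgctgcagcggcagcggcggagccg
The capitals in Smyd1 are TATAAA on the opposite strand, with its first base at -28 from the start, a motif in 12.4% of 32851 promoters of this length. In Car4 they are the AP-2 element GCCNNNGGC at -106 (13.7% of promoters), and in Cachd1 the GC box GGGCGG at -212 (32.7% of promoters). The Dcdc2a window held none of the motifs searched. The extended oestrogen-related receptor element TCAAGGTCA (0.387% of promoters), its core AAGGTCA (4.08%) and, outside Cd37, the E-box CACGTG (6.02%) were not in the windows of the 8 genes. All motifs were searched on both strands. The Smyd1 window held 2 CpG dinucleotides, the Car4 window 11, the Dcdc2a window 18 and the Cachd1 window 21. A match is a description of the letters, and a window without a match says nothing about binding elsewhere.

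All 9 genes passed the filter on low counts. Between day 5 and day 3 in WT, Smyd1, Cd37, Dcdc2a and Nckap1l were higher at day 5 and Prom2, Aspg, Car4, Cachd1 and Fndc3c1 were lower. All 9 passed an adjusted p of 0.05 there, as the choice of genes made likely, against 0.77% of the 12856 genes tested, and 1 of 9 did so in KO, against 0.552%. Nothing is read from either count. The tested comparisons below use the mean of both PGCLC times or the EpiLC libraries.

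In KO against WT, 5 of the 9 genes passed over both PGCLC times, Cachd1 and Fndc3c1 higher and Smyd1, Prom2 and Cd37 lower, where 29.3% of the 12856 tested genes passed (15.9% higher, 13.4% lower). That test takes the day 3 and day 5 libraries of a KO line as independent. Their deviations from the group mean correlated at 0.544 in A5, 0.352 in B1 and 0.588 in A2. No fit with the KO line as a block was run for it, so its SE and p-values may be too small. In EpiLC 1 of 9 passed, Car4, where 11.1% of all genes did (6.92% higher, 4.15% lower). The EpiLC library labelled KO A2, in which Esrrb was not low, enters this comparison. That background rests on few libraries: 198, 181 and 182 genes were called without WT EpiLC replicate 1, 2 or 3 and 596 without KO A2, against 2143 and 2473 without KO A5 or B1. The KO effect differed between the stages for 4 of 9, with Cachd1, Car4 and Fndc3c1 higher and Smyd1 lower in PGCLC, where 14.3% of all genes passed (6.46% higher, 7.86% lower). Without WT EpiLC replicate 1, 2 or 3 the genes called there numbered 1054, 1034 and 1079, against 1842 with all libraries. In PGCLC against EpiLC 7 of 9 passed in KO (3 higher, 4 lower) and 8 of 9 in WT (4 higher, 4 lower), where 50.3% of all genes passed in KO (24.1% higher, 26.2% lower) and 63.1% in WT (31.2% higher, 31.9% lower). The median log2 difference of the members in KO against WT PGCLC was 0.02, beside 0.02 over all tested genes. In EpiLC it was -0.46, beside 0.01, and for the difference of the KO effects 0.25, beside 0.01. In PGCLC against EpiLC it was -0.70 in KO, beside -0.03, and -0.02 in WT, beside 0.

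**Figure D1:**
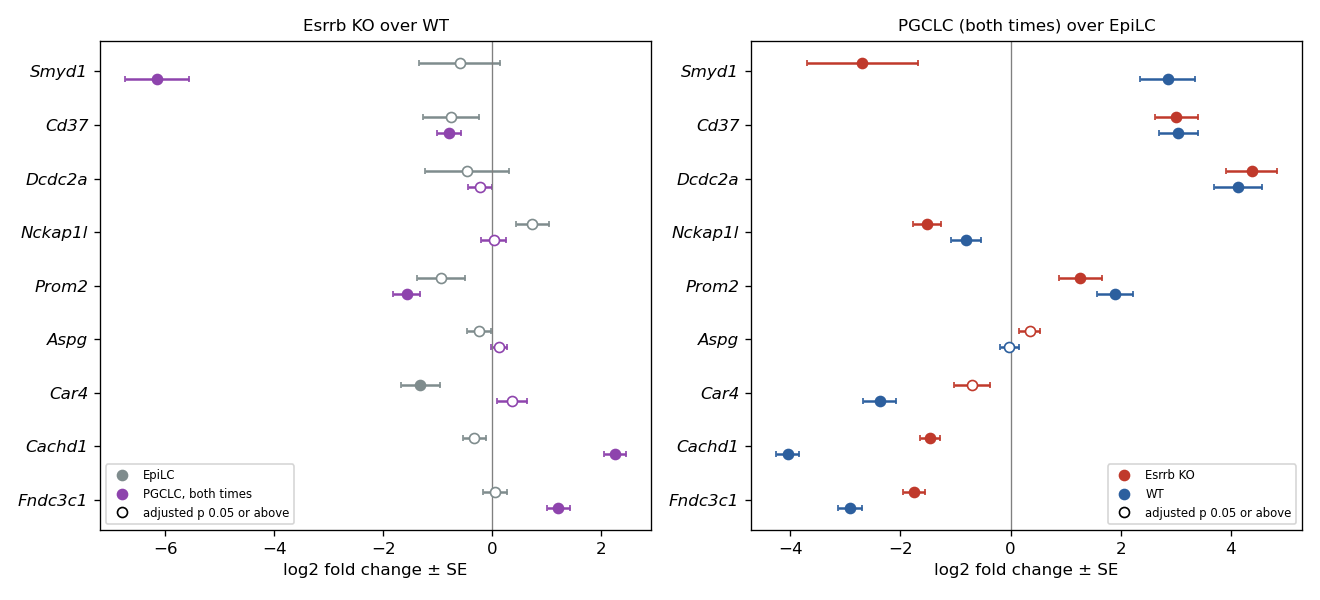
Log2 fold change ± SE of the 9 genes from the edgeR fit. The left panel gives Esrrb KO over WT in EpiLC and over both PGCLC times, and the right panel gives PGCLC over EpiLC in KO and in WT; open points have an adjusted p of 0.05 or above. Cachd1 stood at 2.25 and Smyd1 at -6.15 in KO PGCLC, and the Smyd1 value rests on 6 KO counts.

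Smyd1 (ENSMUSG00000055027, chr6:71213940-71322233, - strand, GRCm38 positions from GENCODE) was the member with the largest KO difference in PGCLC. It measured 0, 1.01 and 1.16 CPM in KO EpiLC, against 1.52, 0.714 and 1.0 CPM in WT EpiLC. At day 3 it had no count in any KO library, against 3.85, 3.78 and 4.1 CPM in WT. At day 5 it measured 0.983, 0.437 and 0 CPM in KO cells, against 18.8, 16.8 and 17.5 CPM in WT cells. Every WT PGCLC library thus stood above every KO PGCLC library, while the EpiLC groups overlapped. KO PGCLC held 6 Smyd1 counts in all and WT PGCLC 303, a ratio of 0.0219 (exact 95% counting interval 0.00799 to 0.0483). At day 3 the 0 counts of KO cells against 54 counts of WT cells make Smyd1 at least 15.2-fold lower in KO, with a floor of 3 counts over the group. Over both PGCLC times the KO difference passed the test (adjusted p = 4.05e-06, edgeR), and so did the difference between the KO effects in PGCLC and in EpiLC (adjusted p = 0.00652). The fitted log2 values of this gene depend on the prior count and are no bound.

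In WT, Smyd1 had 249 counts at day 5 and 54 counts at day 3. It rose in WT PGCLC against WT EpiLC, with 303 counts against 13 (ratio 10.1, counting interval 5.84 to 19.3, adjusted p = 0.000192). KO PGCLC held 6 counts and KO EpiLC 9 (ratio 0.332, counting interval 0.0971 to 1.04), a difference called by the fit (adjusted p = 0.0369) and lost with the KO line as a block (adjusted p = 0.0695). It was also lost without KO EpiLC B1 or A2, without any of the KO day 3 libraries or without KO day 5 B1 (adjusted p = 0.0512 to 0.125). All 18 markers of heart and skeletal muscle were measured, and their sum was 67.7 to 91.7 CPM in KO EpiLC, 37.7 to 68.3 CPM in KO day 3 and 43.0 to 62.1 CPM in KO day 5 cells. In WT it was 86.8 to 90.9 CPM in EpiLC, 38.0 to 51.5 CPM at day 3 and 55.6 to 66.5 CPM at day 5. Tbx5, Myl2 and Mef2c were at 0 in WT day 5 cells, and the other muscle markers had counts there. The WT sum was thus higher at day 5 than at day 3 without overlap, as Smyd1 was, and highest in EpiLC, where Smyd1 was low. The part of muscle cells in the Smyd1 levels was not tested. Of the other 4 SMYD genes, Smyd2 was higher in KO PGCLC (0.40 ± 0.11 log2, adjusted p = 0.00942) and Smyd5 was lower in KO EpiLC (-0.28 ± 0.08, adjusted p = 0.0334), while no other SMYD gene passed in those comparisons.

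**Figure D2:**
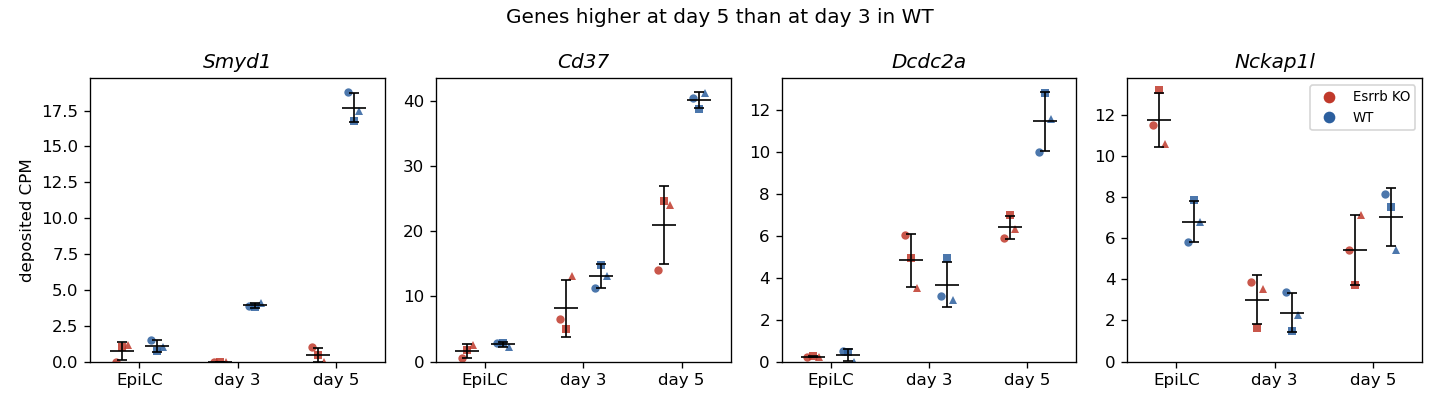
Deposited CPM of Smyd1, Cd37, Dcdc2a and Nckap1l in EpiLC and in PGCLC at day 3 and day 5, with Esrrb KO left of WT at each stage. Points are libraries (circle A5 or WT 1, square B1 or WT 2, triangle A2 or WT 3) and lines are the mean ± SD of 3. Smyd1 stood at 16.8 to 18.8 CPM in WT at day 5 and at 0 to 0.983 CPM in KO.

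Cd37 (ENSMUSG00000030798, chr7:45233632-45239115, - strand) was higher in PGCLC than in EpiLC in both genotypes, and lower in KO than in WT PGCLC. In EpiLC it measured 0.47, 1.78 and 2.54 CPM in KO cells and 2.79, 2.86 and 2.26 CPM in WT cells, with the groups overlapping. At day 3 it measured 6.47, 4.95 and 13.1 CPM in KO cells and 11.3, 14.9 and 13.2 CPM in WT cells, where line A2 lay among the WT values. At day 5 it measured 14, 24.7 and 24.1 CPM in KO cells and 40.4, 38.8 and 41.3 CPM in WT cells, with no overlap. The day 5 against day 3 difference that chose Cd37 enters this change in overlap, so nothing is read from it. PGCLC were above EpiLC 8.06-fold in KO (3.01 ± 0.39 log2, adjusted p = 1.45e-05) and 8.27-fold in WT (3.05 ± 0.35, adjusted p = 2.12e-06). Over both PGCLC times Cd37 fell in KO (-0.80 ± 0.22 log2, adjusted p = 0.0138), and the KO effect in PGCLC did not differ beyond its error from that in EpiLC (-0.04 ± 0.76, adjusted p = 0.985). Cd37 shares 13 exon bases with Tead2 on the opposite strand, a gene of up to 219 CPM, and the strand setting of the authors' counting is not given in the sources used here.

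Of 30 other tetraspanin genes 22 were tested. In PGCLC against EpiLC 5 were higher and 8 lower in KO, and 9 were higher and 4 lower in WT, where 50.3% of all tested genes passed in KO and 63.1% in WT, so these counts are near the background. Tspan1 rose 3.08 ± 0.37 log2 in KO and 3.04 ± 0.39 in WT. Cd9, a surface protein of stem cells and germ cells, rose 0.94 ± 0.33 in KO and 2.42 ± 0.36 in WT. In KO against WT PGCLC 1 of the 22 was higher and 1 lower, where 29.3% of all tested genes passed. Their median log2 difference there was -0.07, beside 0.02 over all tested genes. In KO against WT EpiLC 5 of the 22 were higher and 0 lower, where 6.92% of all tested genes were higher and 4.15% lower. The library labelled KO A2 enters that comparison. For the difference of the KO effects 1 was higher and 4 lower in PGCLC, where 6.46% of all tested genes were higher and 7.86% lower.

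Nckap1l (ENSMUSG00000022488, chr15:103453794-103498810, + strand) differed little between the genotypes in PGCLC and was higher in EpiLC than in PGCLC averaged over both times. It measured 11.5, 13.2 and 10.6 CPM in KO EpiLC and 5.82, 7.85 and 6.78 CPM in WT EpiLC, with no overlap. Day 3 values were 3.88, 1.65 and 3.53 CPM in KO cells and 3.37, 1.51 and 2.28 CPM in WT cells. Day 5 values were 5.41, 3.71 and 7.15 CPM in KO cells and 8.15, 7.51 and 5.43 CPM in WT cells. The groups overlapped at both PGCLC times, and the WT day 5 mean (7.03 CPM) was above that of WT EpiLC (6.82 CPM). The EpiLC difference missed the threshold (0.73 ± 0.30 log2, adjusted p = 0.115) and passed it without line A2 (0.78, adjusted p = 0.048). PGCLC were below EpiLC in KO (-1.52 ± 0.26, adjusted p = 0.000169) and in WT (-0.81 ± 0.28, adjusted p = 0.0177), the WT call being lost without WT EpiLC replicate 2 (adjusted p = 0.0855). Over both PGCLC times KO and WT differed by 0.02 ± 0.23 log2 (adjusted p = 0.961).

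Of the other 10 genes of the WAVE complex 9 were tested, and 4 were higher in KO PGCLC, where 15.9% of all tested genes were. The largest was Abi3, like Nckap1l known from blood cells, with a mean of 3.5 CPM at day 3 and 4.14 CPM at day 5 in KO cells, against 1.02 and 0.721 CPM in WT cells (2.13 ± 0.36 log2, adjusted p = 0.000336). Abi3 fell in WT PGCLC against WT EpiLC (-2.86 ± 0.39, adjusted p = 1.07e-05), and its KO effect differed between PGCLC and EpiLC (2.37 ± 0.53, adjusted p = 0.00895). Wasf3, a WAVE protein, was higher in KO PGCLC by 0.34 ± 0.11 log2. Cd37 and Nckap1l are also genes of blood cells. Of 21 haematopoietic and endothelial markers 20 were in the table, and their sum was 131 to 282 CPM in KO EpiLC, 201 to 350 CPM in KO day 3 and 316 to 450 CPM in KO day 5 cells. In WT it was 124 to 128 CPM in EpiLC, 240 to 266 CPM at day 3 and 328 to 345 CPM at day 5. Most of it was Pecam1, which germ cells also express (mean 350 CPM in KO and 300 CPM in WT at day 5). Ptprc, Cd48, Cd93, Cd53, Hbb-y and Hba-x were at 0 in all 12 PGCLC libraries. Every other marker of the list in the table had counts in KO day 5 cells. The part of blood cells in these levels was not tested.

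Dcdc2a (ENSMUSG00000035910, chr13:25056004-25210706, + strand) was near 0 in EpiLC and present in PGCLC of both genotypes. EpiLC held 3 counts of it in KO and 4 in WT. Day 3 values were 6.04, 4.95 and 3.53 CPM in KO cells and 3.13, 4.92 and 2.96 CPM in WT cells, with the groups overlapping. Day 5 values were 5.9, 6.99 and 6.34 CPM in KO cells and 9.99, 12.8 and 11.6 CPM in WT cells, with no overlap. The day 5 against day 3 difference that chose Dcdc2a enters this change in overlap, so nothing is read from it. PGCLC against EpiLC gave a ratio of 23.9 in KO (counting interval 8.01 to 117, adjusted p = 1.52e-06) and 23.2 in WT (counting interval 8.92 to 85.8, adjusted p = 6.56e-07). Over both PGCLC times KO and WT differed by -0.22 ± 0.22 log2 (adjusted p = 0.482). Of 9 other genes with doublecortin domains 2 were tested, and Dclk1, a microtubule-binding kinase, had 12 and 21 counts in KO day 3 and day 5 cells, against 1 and 0 counts in WT cells (adjusted p = 0.00258).

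Prom2 (ENSMUSG00000027376, chr2:127526473-127541467, - strand) was highest in WT cells at day 3 and lower in KO than in WT PGCLC. It measured 1.41, 2.79 and 1.39 CPM in KO EpiLC and 2.79, 3.57 and 4.02 CPM in WT EpiLC. Day 3 values were 9.7, 9.89 and 4.53 CPM in KO cells and 23.4, 25.0 and 25.0 CPM in WT cells. Day 5 values were 4.67, 1.97 and 1.23 CPM in KO cells and 6.93, 8.12 and 7.55 CPM in WT cells. The groups did not overlap at either PGCLC time, and met only at 2.79 CPM in EpiLC. Prom2 fell 2.98-fold in KO PGCLC against WT (-1.57 ± 0.25 log2, adjusted p = 0.000204). The EpiLC difference missed the threshold (-0.95 ± 0.44, adjusted p = 0.166), and the KO effects at the stages differed by -0.63 ± 0.52 (adjusted p = 0.447). Averaged over both times PGCLC were above EpiLC in KO (1.27 ± 0.39, adjusted p = 0.0119) and in WT (1.90 ± 0.33, adjusted p = 0.000108), the KO call being lost without KO EpiLC A5 (adjusted p = 0.0585). The KO day 5 values overlapped those of KO EpiLC, with lines B1 and A2 below their own EpiLC values. Prom1, the other prominin, went the opposite way and fell in PGCLC against EpiLC in KO (-1.03 ± 0.22) and in WT (-1.62 ± 0.22). The sum of 12 epithelial markers overlapped between KO (802 to 998 CPM) and WT (967 to 1050 CPM) at day 3, and between KO (533 to 882 CPM) and WT (737 to 876 CPM) at day 5. The part of epithelial cells in the Prom2 difference was not tested.

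Cachd1 (ENSMUSG00000028532, chr4:100776675-101029220, + strand) was highest in EpiLC, lower in PGCLC of both genotypes, and higher in KO than in WT PGCLC. It measured 39.0, 39.1 and 45.5 CPM in KO EpiLC and 56.2, 48.5 and 45.4 CPM in WT EpiLC, the groups overlapping only through the library labelled KO A2 and WT 3. PGCLC of day 3 had 16.4, 12.2 and 24.4 CPM in KO and 5.78, 8.7 and 5.01 CPM in WT. PGCLC of day 5 had 13.3, 11.8 and 12.7 CPM in KO and 2.04, 1.22 and 1.18 CPM in WT. Every KO PGCLC library was above every WT one. Over both times Cachd1 was 4.76-fold higher in KO (2.25 ± 0.20 log2, adjusted p = 6.51e-07). PGCLC were below EpiLC 2.77-fold in KO (-1.47 ± 0.18 log2, adjusted p = 8.09e-06) and 16.6-fold in WT (-4.05 ± 0.21, adjusted p = 4.55e-10). The KO effect in PGCLC exceeded that in EpiLC by 2.58 ± 0.29 log2 (adjusted p = 5.57e-05), in a comparison where EpiLC alone gave -0.33 ± 0.21 (adjusted p = 0.299). Of the 4 alpha-2-delta genes 2 were tested, and the 1 that passed a comparison was Cacna2d2, higher in WT PGCLC than in WT EpiLC (1.08 ± 0.42, adjusted p = 0.0324).

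Fndc3c1 (ENSMUSG00000033737, chrX:106420041-106485401, - strand) was, like Cachd1, lower in PGCLC than in EpiLC and higher in KO than in WT PGCLC. It measured 37.6, 36.8 and 19.2 CPM in KO EpiLC and 28.4, 28.1 and 30.9 CPM in WT EpiLC, with the library labelled KO A2 the lowest of the 6. Day 3 cells had 19.0, 18.5 and 14.4 CPM in KO and 10.8, 13.4 and 14.8 CPM in WT, overlapping through A2. Day 5 cells had 6.39, 3.93 and 4.7 CPM in KO and 1.22, 0.812 and 1.65 CPM in WT, with no overlap. The day 5 against day 3 difference that chose Fndc3c1 enters this change in overlap, so nothing is read from it. Over both PGCLC times Fndc3c1 was 2.32-fold higher in KO (1.21 ± 0.21 log2, adjusted p = 0.000505). The median log2 ratio to the WT mean was taken over 428 X-linked genes of at least 5 CPM in their highest group. It was 0.03 to 0.08 in KO day 3 and 0.05 to 0.12 in KO day 5 libraries. The part of the X chromosome in the Fndc3c1 difference was not tested. PGCLC were below EpiLC in KO (-1.75 ± 0.20, adjusted p = 3e-06) and in WT (-2.92 ± 0.22, adjusted p = 1.87e-08). The KO effects differed by 1.17 ± 0.31 log2 between PGCLC and EpiLC (adjusted p = 0.0192), a call lost without WT EpiLC replicate 3 (adjusted p = 0.0501). Its relative Fndc3b measured 25.2, 17.5 and 121 CPM in KO EpiLC and 16.5, 11.4 and 13 CPM in WT EpiLC, the library labelled KO A2 standing far above the rest (1.97 ± 0.53 log2, adjusted p = 0.0286). Fndc3a, the third of the family, was higher in KO PGCLC by 0.28 ± 0.07 log2 (adjusted p = 0.00812).

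**Figure D3:**
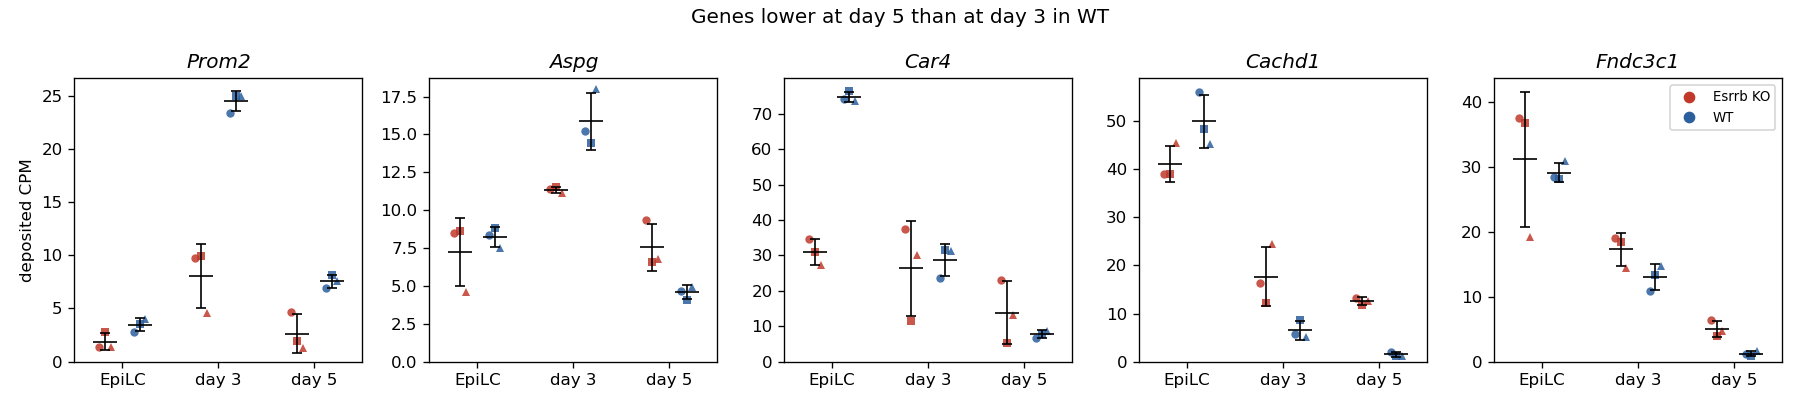
Deposited CPM of Prom2, Aspg, Car4, Cachd1 and Fndc3c1 in EpiLC and in PGCLC at day 3 and day 5, with Esrrb KO left of WT at each stage. Points are libraries (circle A5 or WT 1, square B1 or WT 2, triangle A2 or WT 3) and lines are the mean ± SD of 3. Cachd1 stood at 11.8 to 13.3 CPM in KO at day 5 and at 1.18 to 2.04 CPM in WT, and Car4 at 27.3 to 34.6 CPM in KO EpiLC and 73.5 to 76.4 CPM in WT EpiLC.

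Car4 (ENSMUSG00000000805, chr11:84957786-84966044, + strand) differed between the genotypes in EpiLC and not beyond its spread in PGCLC. It measured 34.6, 31.0 and 27.3 CPM in KO EpiLC and 74.2, 76.4 and 73.5 CPM in WT EpiLC, with no overlap. PGCLC of day 3 had 37.5, 11.5 and 30.0 CPM in KO and 23.6, 31.4 and 31.2 CPM in WT. PGCLC of day 5 had 23.1, 5.24 and 13.1 CPM in KO and 6.73, 7.91 and 8.73 CPM in WT. Line B1 was the lowest and line A5 the highest of the KO libraries at both PGCLC times, on either side of the WT values. Car4 fell 2.5-fold in KO EpiLC (-1.32 ± 0.35 log2, adjusted p = 0.0285), a call lost without WT EpiLC replicate 1 (adjusted p = 0.082), 2 (0.0863) or 3 (0.0814) and without KO EpiLC A2 (0.0697). In PGCLC KO and WT differed by 0.36 ± 0.28 log2 (adjusted p = 0.355). The KO effects at the stages differed by 1.68 ± 0.45 log2 (adjusted p = 0.0215), a call lost without WT EpiLC replicate 2 (adjusted p = 0.0524). PGCLC were below EpiLC 5.22-fold in WT (-2.38 ± 0.30, adjusted p = 5.76e-06), while in KO the difference of -0.70 ± 0.32 missed the threshold (adjusted p = 0.0754) and passed it with the KO line as a block (-0.83, adjusted p = 0.00987), and without KO day 3 A5 (0.0356) or KO day 5 A5 (0.012). Car4 lies on chromosome 11, where line A2 had a median log2 ratio to the WT mean of -0.48, -0.42 and -0.46 in EpiLC, day 3 and day 5 cells. Without every library of line A2 the KO difference in EpiLC was -1.26 ± 0.41 log2 and missed the threshold (adjusted p = 0.071). The part of the chromosome in the Car4 difference was not tested.

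Of 15 other carbonic anhydrase genes 8 were tested, and 1 was higher and 3 lower in KO PGCLC, where 15.9% of all tested genes were higher and 13.4% lower. Car14 was higher there (2.27 ± 0.44 log2, adjusted p = 0.0012) and Car8, which lacks the catalytic activity of the family, was lower (-3.17 ± 0.32, adjusted p = 2.44e-06). Car3 fell in PGCLC against EpiLC in KO (-4.49 ± 0.62) and in WT (-4.84 ± 0.58).

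Aspg (ENSMUSG00000037686, chr12:112106679-112127559, + strand) did not pass any tested comparison. It measured 8.46, 8.63 and 4.62 CPM in KO EpiLC and 8.36, 8.8 and 7.53 CPM in WT EpiLC, with the groups overlapping. At day 3 it measured 11.4, 11.5 and 11.1 CPM in KO cells and 15.2, 14.4 and 18 CPM in WT cells, KO below WT in every library. At day 5 it measured 9.34, 6.55 and 6.74 CPM in KO cells and 4.69, 4.06 and 4.95 CPM in WT cells, KO above WT in every library. Aspg was chosen on its day 5 against day 3 difference, which enters this crossing, so nothing is read from it. Averaged over both times KO and WT differed by 0.12 ± 0.15 log2 (adjusted p = 0.574). PGCLC against EpiLC gave 0.35 ± 0.19 in KO (adjusted p = 0.142) and -0.02 ± 0.18 in WT (adjusted p = 0.933). Of 8 other enzymes of asparagine and aspartate metabolism, all tested, 6 were lower in KO PGCLC, where 13.4% of all tested genes were. Asns, which makes asparagine, averaged 305 CPM at day 3 and 313 CPM at day 5 in KO cells, against 567 and 565 CPM in WT cells (-0.87 ± 0.14 log2, adjusted p = 0.000275), and Got1, an aspartate aminotransferase, fell by 0.79 ± 0.06 (adjusted p = 2.49e-07). Aspa, a gene of low counts, had a larger relative difference than Asns or Got1. It averaged 0.503 CPM at day 3 and 1.16 CPM at day 5 in KO cells, against 5.95 and 13.3 CPM in WT cells. The median of the 8 was -0.63, beside 0.02 over all tested genes.

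As a description of the contrast that chose them, the day 5 over day 3 log2 difference ran in WT between -3.42 for Fndc3c1 and 2.15 for Smyd1. In KO the values of the 8 genes other than Smyd1 had the same sign as in WT, -1.82 for Fndc3c1, -1.67 for Prom2, -1.01 for Car4, -0.63 for Aspg, -0.54 for Cachd1, 0.37 for Dcdc2a, 0.77 for Nckap1l and 1.31 for Cd37. Since the genes were chosen on this contrast, nothing is read from the sizes of these values in KO beside WT. Within the KO lines A5, B1 and A2, whose libraries pair by line, the ratio of day 5 to day 3 CPM was 2.17, 4.99 and 1.84 for Cd37, 0.978, 1.41 and 1.8 for Dcdc2a, and 1.39, 2.25 and 2.03 for Nckap1l. It was 0.482, 0.199 and 0.27 for Prom2, 0.818, 0.568 and 0.609 for Aspg, and 0.616, 0.454 and 0.436 for Car4. For Cachd1 it was 0.81, 0.967 and 0.519, and for Fndc3c1 0.337, 0.213 and 0.327. All 3 lines stood on the same side of 1 for each of these genes except Dcdc2a, where A5 was just below 1. Smyd1 had no day 3 count in KO, so no ratio is given.

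**Figure D4:**
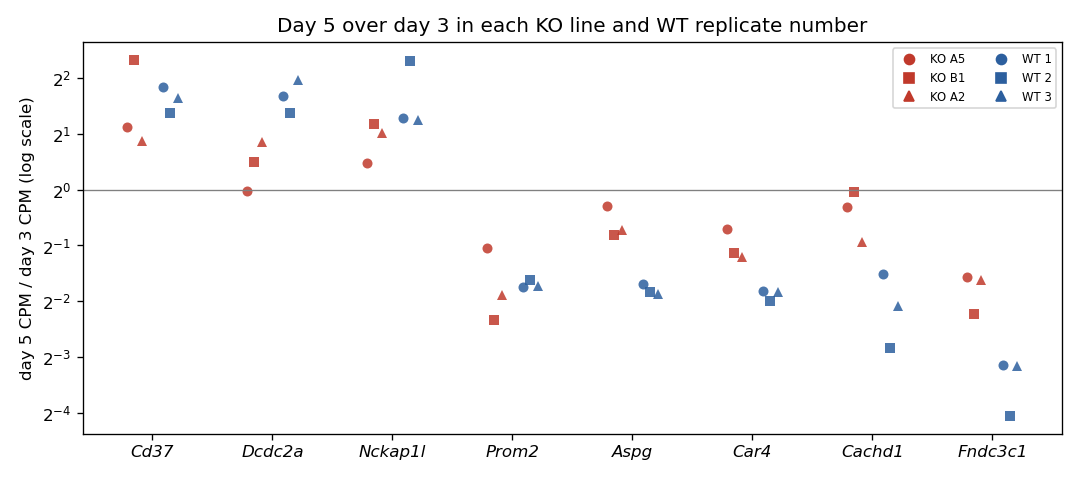
Day 5 over day 3 ratio of deposited CPM for the 8 genes other than Smyd1, by KO line and WT replicate number, on a log2 axis. Each point is 1 pair of libraries of the same line or number, and WT numbers do not pair libraries, so WT points show only the spread of such ratios. The KO ratios of Cd37 ran over a range of 1.84 to 4.99 and those of Fndc3c1 over 0.213 to 0.337; the genes were chosen on this contrast, and no KO against WT difference is read from it.

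Pearson correlations of log2 CPM between members over the 18 libraries varied widely. Cd37 and Dcdc2a had r = 0.91, Cachd1 and Fndc3c1 0.87, Cd37 and Fndc3c1 -0.91 and Cd37 and Cachd1 -0.85, while Nckap1l and Smyd1 had 0.03 and Car4 and Prom2 -0.03. These correlations describe 6 groups at 3 stages and share the libraries' depth, and the day 3 and day 5 libraries that chose the genes enter them, so their signs are partly set by that choice. Over all tested genes of at least 5 CPM in their highest group, the patterns most like Smyd1 were those of Plbd2 (r = 0.969) and Agpat2 (0.948). For Cd37 they were Acp6 (0.968) and Tada3 (0.955), for Dcdc2a Ccpg1 (0.971) and Otog (0.965), and for Nckap1l Sec23b (0.885) and Hspa5 (0.88). For Prom2 they were Itih5 (0.914) and Cmtm4 (0.901), for Aspg Stt3b (0.806) and Dlg4 (0.791), and for Car4 Grhl2 (0.929) and Pabpc4 (0.918). Cachd1 was nearest to Foxp1 (0.98) and Cbx5 (0.962), and Fndc3c1 to Stag2 (0.941) and Fign (0.933). The nearest genes of Aspg were less alike than those of the other members.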

How the data were processed

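Polyadenylated RNA was measured in 18 libraries, 3 in each of 6 groups taken from the labels. The authors deposited, for each library, counts per Ensembl gene and, for the whole series, a table of CPM, each value of which matched its deposited count over the column sum, with a tolerance of 1e-06. Trim Galore 0.4.3.1 and the builds mm10 and GRCm38.p4 are listed in the submitters' processing notes. The library kit was directional, per the labels' protocols. How reads were aligned and counted, and with which strand setting, is not given in the sources used here. Of 25965 rows, 56 without a gene ID were left out (0.0559% to 0.0828% of counts).

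Counts were fitted in R 4.3.3 with edgeR 4.0.16 (filterByExpr, 12856 genes, TMM factors 0.964 to 1.04, robust quasi-likelihood) with a mean for each group. Benjamini-Hochberg adjusted p under 0.05 over all tested genes within a comparison was a call. The comparisons were KO against WT in EpiLC and over both PGCLC times, PGCLC against EpiLC in each genotype, and the difference of the KO effects. Fold changes are given ± SE, which was taken as the absolute log2 fold change over the square root of the F statistic. Such an SE is rough where the fold change is near 0 or the counts are few. Where a group had 0 counts, a floor of 3 counts for that group replaced it, and with few counts a ratio has its exact binomial 95% interval, which covers counting error only. Positions in genes are from GENCODE M21 (GRCm38) and promoters from RefSeq (GRCm38.p6). The pipeline was tested on simulated data.

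The members, gene lists and markers were chosen with earlier results of these data known. Named genes are the 9 members, Esrrb, up to 4 genes a family list with the largest changes among those called, markers of other cell types, and the 2 genes per member with the most similar log2 CPM (prior count 2). KO line names paired the libraries, since a name is the same cell line (correlations of deviations from the group mean 0.11 to 0.588), while WT numbers did not (-0.048 to 0.066). Alternatives were DESeq2 1.42.0, limma-trend (limma 3.58.1) on log2 of deposited CPM, RLE size factors, dropping the low-count filter, a fit of only the groups compared, a replicate block, leaving out each library and leaving out line A2.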

Additional observations from a re-analysis of the deposited data

Results flagged for a closer look

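The KO effect differed between PGCLC and EpiLC for 4 of the 9 genes, by a test of the difference itself in edgeR's fit of all libraries. Of all tested genes 14.3% passed there (6.46% higher, 7.86% lower). For Smyd1 the difference was -5.55 ± 1.14 log2 (adjusted p = 0.00652), and its size depends on the prior count because KO PGCLC held 6 counts. For Cachd1 it was 2.58 ± 0.29 (adjusted p = 5.57e-05), with all 6 KO PGCLC libraries above all 6 WT PGCLC libraries. For Car4 it was 1.68 ± 0.45 (adjusted p = 0.0215), and for Fndc3c1 1.17 ± 0.31 (adjusted p = 0.0192). Both calls were lost with limma-trend (adjusted p = 0.0622 for Car4 and 0.0586 for Fndc3c1). In edgeR the Car4 call was also lost without line A2 (adjusted p = 0.0747) or without WT EpiLC replicate 2 (0.0524). The Fndc3c1 call was lost without WT EpiLC replicate 3 (adjusted p = 0.0501).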

How the results depend on the processing

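Of 1095 tested member values under the alternatives, 1041 kept their direction and their side of the threshold, 23 lost a call, 5 gained one and 26 changed sign, the last all in values not called. RLE size factors moved none of the counts of calls by over 1.5 times. In EpiLC, the members called in KO against WT numbered 0 with limma-trend (Car4, adjusted p = 0.0527), 2 without line A2 (Nckap1l and Cachd1, which was lower by 0.43 log2) and 0 to 1 over the leave-one-out fits. All genes called there numbered 2 in a fit of only the groups compared, Car4 among them, and 181 to 2473 over the leave-one-out fits. Without line A2, Car4 in EpiLC had an adjusted p of 0.071. In PGCLC against EpiLC in KO, all genes called numbered 4005 with only the groups compared, and the Prom2 call was lost there (adjusted p = 0.0854). Members whose KO effects differed numbered 2 with limma-trend (Car4 0.0622 and Fndc3c1 0.0586, adjusted p), and all genes 2836 without line A2 (where Car4 had 0.0747) and 1034 to 2442 over the leave-one-out fits. Day 5 against day 3 in KO had 46 genes called with no filter, 214 with the replicate block, 173 with DESeq2, 0 with only the groups compared, 873 without line A2 and 9 to 349 over the leave-one-out fits. In WT it had 387 with the replicate block, 325 with DESeq2, 3687 with only the groups compared, 2016 without line A2 and 10 to 604 over the leave-one-out fits. The cause was not tested. The replicate block, which was not run for KO against WT, changed no member call other than those of Smyd1 and Car4 in KO PGCLC against EpiLC.

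Values that changed sign were Nckap1l in KO against WT PGCLC, -0.05 with limma-trend, -0.15 without line A2 and -0.11 to 0.18 over the leave-one-out fits, and Aspg in WT PGCLC against EpiLC, 0.01 with no filter, 0.07 with limma-trend and -0.08 to 0.03 over the leave-one-out fits. The difference of the KO effects was 0.2 for Cd37 without line A2 and -0.48 to 0.52 over the leave-one-out fits, and -0.14 for Dcdc2a with limma-trend and -0.15 to 0.78 over the leave-one-out fits. Fndc3c1 in KO against WT EpiLC ran from -0.1 to 0.28. Members of few counts in a group (Smyd1, and Dcdc2a in EpiLC) are limited by depth, and folds there are bounds or ratios with intervals.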
